A study of Oryza sativa with 6 samples.

Results

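The specific IP-G4s that lie far from any other specific IP-G4 were described here. An IP-G4 is a stretch of rice DNA pulled down with BG4, an antibody fragment that binds folded DNA G-quadruplexes (G4s), and a specific IP-G4 is one that was reproducible with 1 cation during folding and not with the other. The K+-specific list and the Na+-specific list were pooled and sorted by position. The members were chosen by these positions alone: an IP-G4 was called isolated when the gaps to the previous and to the next specific IP-G4 on its chromosome were both over 30 kb. Of 25509 specific IP-G4s on 12 chromosomes, 580 (2.27%) were isolated, and they comprised 386 K+-specific and 194 Na+-specific ones. The other 24929 comprised 5808 with 1 gap over 30 kb, 19097 with none, and the 24 first and last ones of the chromosomes, which were left out by the rule.

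The 4 BG4 libraries fall into the 2 conditions K+PEG and Na+PEG, with 2 replicates each, and were set against 2 input libraries without antibody. All came from wild-type (WT) rice seedlings, whose genomic DNA was denatured and refolded in PEG200 with KCl (K+PEG) or NaCl (Na+PEG), whereas the buffers for antibody binding and washing contained KCl in both conditions. The DNA was folded in vitro, so that the lists do not show which G4s were folded in the plant. Each experiment was repeated biologically, according to the study's methods.

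A G4 forms where a strand holds several runs of guanines, which pair into stacked planar quartets around a monovalent cation. K+ sits between the quartets and as a rule stabilizes them more than Na+ does, and sequences differ in which cation and which strand arrangement they prefer. In plants as in animals, G4-forming sequences have been linked to promoters, telomeres and the regulation of transcription. The sequences and genes under the isolated IP-G4s were not analysed here, since that needs a genome of the build used for these lists (MSU v7.0).

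Most specific IP-G4s had a near neighbour. The median of the 25497 gaps between adjacent specific IP-G4s was 8694 bp and the mean 14345 bp, and 13.7% of the gaps were over 30 kb. For the isolated IP-G4s, the smaller of both gaps ranged from 30011 to 120076 bp with a median of 36048.5 bp, and the larger one had a median of 51093.5 bp. The smaller gap of the other specific IP-G4s had a median of 3478 bp. These gaps are what the rule used and are given as a description. Just inside the threshold lay the K+-specific IP-G4s on chromosome 5 from 3059480 to 3059775 and on chromosome 6 from 20932703 to 20932962, with smaller gaps of 30011 and 30019 bp. Just outside lay the K+-specific ones on chromosome 10 from 4316498 to 4316816 and on chromosome 2 from 12018946 to 12019278, with 29981 and 29959 bp.

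Isolation far beyond the threshold was rare. Of the isolated IP-G4s, 187 kept both gaps over 40 kb, 58 over 50 kb and 2 over 100 kb. The most isolated one was a K+-specific IP-G4 of 239 bp on chromosome 7 from 27864019 to 27864257, with 120076 bp before and 123299 bp after it. The other IP-G4 with more than 100 kb on both sides was Na+-specific, 288 bp long, and lay on chromosome 11 from 5027075 to 5027362, with gaps of 108063 and 129542 bp. They were followed among K+-specific ones by an IP-G4 of 249 bp on chromosome 12 from 24258621 to 24258869 (smaller gap 81415 bp) and 1 of 235 bp on chromosome 5 from 22811531 to 22811765 (71675 bp). Among the Na+-specific type they were followed by an IP-G4 of 218 bp on chromosome 6 from 30628587 to 30628804 (78905 bp) and 1 of 219 bp on chromosome 12 from 20580478 to 20580696 (78710 bp). These 6 IP-G4s all measured between 218 and 288 bp, so none of the most isolated IP-G4s of either type was a long one.

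Isolated IP-G4s sometimes followed each other. In genome order, 396 stood alone between specific IP-G4s that were not isolated, whereas 184 (31.7%) adjoined at least 1 other isolated one. By the rule, the neighbour of an isolated IP-G4 already has 1 gap over 30 kb, and 13.7% of all gaps were that wide. Such a neighbour is isolated too if its other gap is also over 30 kb. Runs therefore follow in part from the rule, and how much lay beyond it was not tested. There were 65 runs of 2, 14 runs of 3 and 3 runs of 4. A run of 4 Na+-specific IP-G4s spanned 211765 bp of chromosome 12 from 20501526 to 20713290. The run of 4 on chromosome 2 from 20902588 to 21063502 held 3 K+-specific and 1 Na+-specific IP-G4, and the one on chromosome 1 from 626036 to 760938 held 2 of each. The gaps beside isolated IP-G4s, each counted once, added up to 51.0 Mb, or 14.0% of the 366 Mb that lie in gaps.

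The first question was whether isolation went with 1 of the cations. Of the isolated IP-G4s, 66.6% (95% Wilson interval 62.6 to 70.3) were K+-specific, against 65.5% (64.9 to 66.1) of the other specific IP-G4s and 65.6% of all. The difference of 1.01 percentage points has a 95% Newcombe interval from -2.97 to 4.78, which includes differences of a few points in either direction. Specific IP-G4s of 1 genome are not replicates of a condition, so that here and below no test across them was made, and intervals treat each IP-G4 as independent. Each IP-G4 contributes through its label only, since the rule took gaps between IP-G4s of both types without regard to type.

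By chromosome, the share of K+-specific ones among isolated IP-G4s ranged from 50% on chromosome 12 (17 of 34) to 75% on chromosome 10 (27 of 36). Among the other specific IP-G4s it stayed between 63.6% on chromosome 3 and 66.9% on chromosome 2. The share was higher among isolated IP-G4s on 9 chromosomes and lower on 3, namely chromosomes 4, 8 and 12, and the difference averaged 0.536 ± 7.74 points (SD, n = 12 chromosomes). The spread between chromosomes thus exceeded the average difference.

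**Figure D1:**
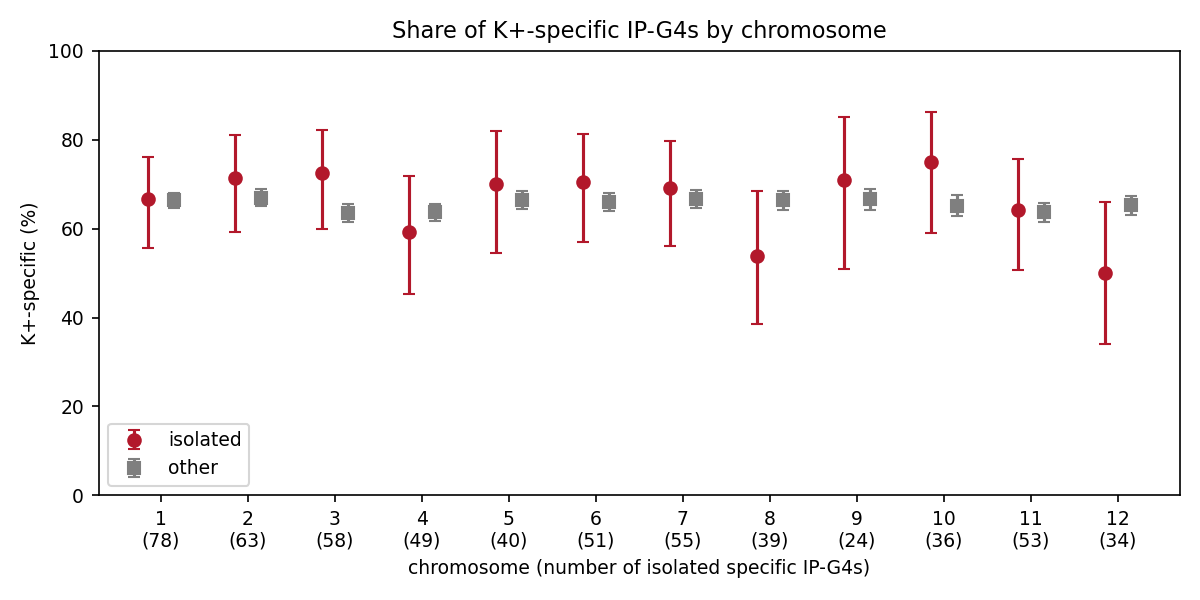
Share of K+-specific IP-G4s (in percent, vertical axis) among isolated (circles) and other specific IP-G4s (squares) on each chromosome, with 95% Wilson intervals as bars and the number of isolated IP-G4s in brackets. The isolated IP-G4s scatter from 50% to 75% around the narrow band of the others, from 63.6% to 66.9%.

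The share of K+-specific IP-G4s was also followed along the distance to the nearest specific neighbour. It was 65.7% (95% Wilson interval 63.4 to 67.9) of 1652 IP-G4s with a smaller gap of up to 200 bp, and 70.5% (69.2 to 71.8) of 4500 with one from 200 bp to 1 kb. For smaller gaps from 5 to 10 kb it was 63.2% (61.8 to 64.5) of 4877. Within the isolated IP-G4s, it was 67.2% (62.4 to 71.6) of 393 with a smaller gap from 30 to 40 kb, 66.7% (58.2 to 74.2) of 129 from 40 to 50 kb, and 62.1% (49.2 to 73.4) of 58 beyond. The K+-specific share was thus highest for neighbours between 200 bp and 1 kb apart, and the intervals of the isolated IP-G4s at all 3 distances include the 65.6% of all specific ones. When IP-G4s shorter than 200 bp were left out and the gaps taken anew, there were 886 isolated ones and the difference in K+-specific share turned to -3.72 points (95% Newcombe interval -6.99 to -0.575).

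The types of the neighbours were also compared between isolated and other IP-G4s. Of the specific IP-G4s next to isolated K+-specific ones, 63.6% (491 of 772) were K+-specific, against 67.0% next to other K+-specific ones. Of those next to isolated Na+-specific IP-G4s, 69.6% (270 of 388) were K+-specific, against 62.7% next to other Na+-specific ones. A neighbour of the same type was therefore found for 52.5% (95% Wilson interval 49.6 to 55.4) of the 1160 neighbours of isolated IP-G4s and for 56.8% (56.4 to 57.2) of the 49834 neighbours of the others, a difference of -4.29 points (95% Newcombe interval -7.20 to -1.39). An IP-G4 can count as a neighbour more than once, so these intervals are too narrow. The shift was not particular to isolated IP-G4s. Next to those with 1 gap over 30 kb, 65.0% (K+ type) and 64.7% (Na+ type) of the neighbours were K+-specific. Next to those with no such gap, the shares were 67.7% and 62.1%. Of the 386 isolated K+-specific IP-G4s, 156 lay between 2 K+-specific ones and 51 between 2 Na+-specific ones. For the 194 isolated ones of the Na+ type, the corresponding counts were 92 and 16.

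The length of an IP-G4 is that of the segment shared by both replicates of its condition. The 386 isolated K+-specific IP-G4s measured 290 bp on average (SD 139 across IP-G4s), with a median of 252.5 bp and quartiles at 208 and 323 bp. The 16339 other K+-specific ones averaged 298 bp (SD 147), with a median of 259 bp and quartiles at 209.5 and 347 bp. Isolated minus other was -7.58 bp (95% interval -21.6 to 6.46, from the standard errors), an interval that includes 0. The 194 isolated Na+-specific ones averaged 248 bp (SD 83.4) with a median of 233.5 bp, against an average of 243 bp (SD 94.5) and a median of 226 bp for the 8590 others of that type. The difference of 4.68 bp (95% interval -7.23 to 16.6) also includes 0.

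Over the 12 chromosomes, the difference in mean length averaged -10.3 ± 31.6 bp (SD) for the K+ type and 5.21 ± 20.01 bp (SD) for the Na+ type. Isolated IP-G4s were longer than the others on 5 of the 12 chromosomes for either type. When isolation required both gaps over 50 kb, which 36 K+-specific IP-G4s met, isolated minus other K+-specific length was -41.2 bp (95% interval -75.4 to -7.06). Their mean was 257 ± 17.4 bp (SE), whereas it was 297 ± 9.05 bp (SE, n = 264) for smaller gaps from 30 to 40 kb.

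**Figure D2:**
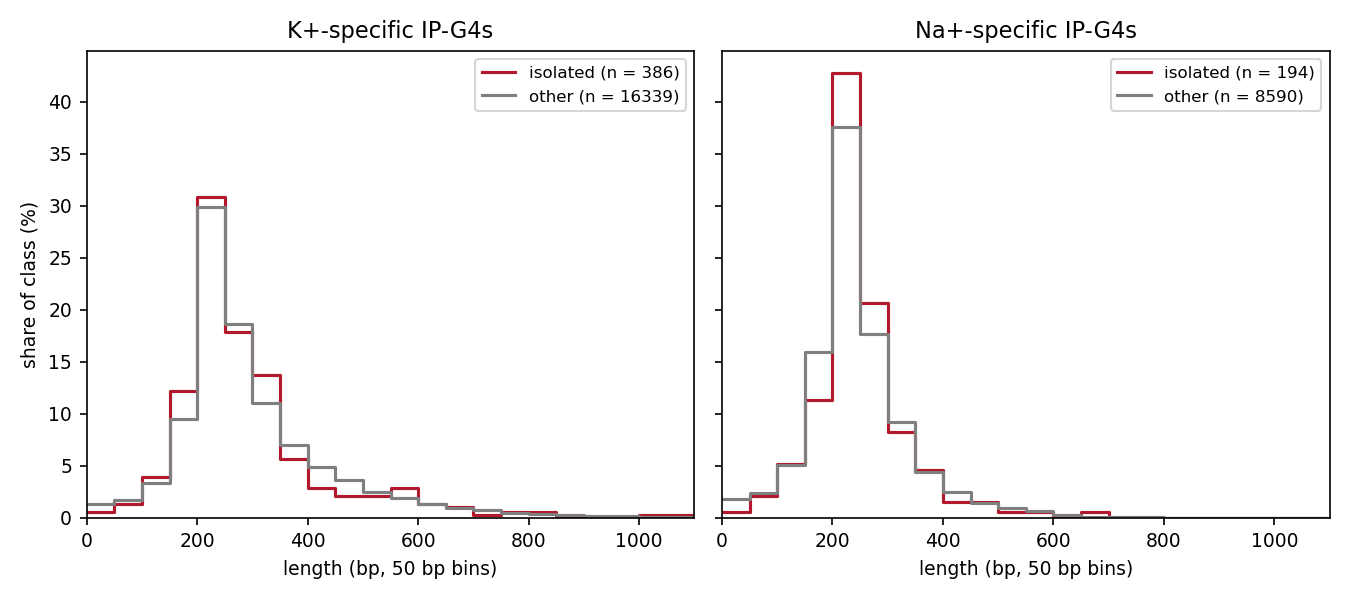
Length of isolated and other specific IP-G4s in bins of 50 bp (horizontal axis, drawn up to 1100 bp), as the share of each class in percent (vertical axis), for K+-specific (left) and Na+-specific IP-G4s (right). Isolated and other IP-G4s have nearly the same profile, with medians of 252.5 and 259 bp on the left and of 233.5 and 226 bp on the right.

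The types differed in length among the isolated IP-G4s too. K+-specific minus Na+-specific was 42.6 bp (95% interval 24.4 to 60.8) among isolated IP-G4s and 54.9 bp (51.8 to 57.9) among the others. Segments shorter than 200 bp, the length of the shortest called peak in the 4 library lists, made up 17.9% of isolated and 15.8% of other K+-specific IP-G4s. Of the Na+-specific ones they made up 19.1% of the isolated and 25.2% of the others, a difference of -6.12 points (95% Newcombe interval -11.1 to 0.0548).

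The longest isolated IP-G4s were all less than 1100 bp long. A K+-specific IP-G4 of 1059 bp lay on chromosome 3 from 19909894 to 19910952, and another of 837 bp on the same chromosome from 18369442 to 18370278. Between them in length was a K+-specific one of 1027 bp on chromosome 11 from 7619722 to 7620748. The Na+ type reached 670 bp on chromosome 2 from 29384442 to 29385111, 565 bp on chromosome 6 from 17156050 to 17156614, and 539 bp on chromosome 11 from 1051794 to 1052332. IP-G4s of at least 600 bp made up 4.15% (16) of isolated and 4.63% (757) of other K+-specific ones. At the short end, the isolated IP-G4s reached down to 29 bp for the K+-specific and 31 bp for the Na+-specific type. Shorter than 100 bp were 1.81% (7) of isolated and 3.03% of other K+-specific ones. For the Na+-specific type the shares were 2.58% (5) and 4.17%.

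Isolated IP-G4s were distributed differently along the chromosomes. Position was measured on the span from the first to the last specific IP-G4 of each chromosome, and the first and the last 10% of this span were pooled as its ends. The ends held 26.2% (152, 95% Wilson interval 22.8 to 29.9) of the isolated IP-G4s, 17.6% (17.1 to 18.0) of the other specific ones and 17.8% of all. The difference was 8.65 points (95% Newcombe interval 5.21 to 12.4). It was above 0 on 11 of 12 chromosomes and averaged 8.92 ± 6.16 points (SD, n = 12 chromosomes). On chromosome 11 alone the isolated share was the lower one, with 13.2% of 53 isolated and 19.2% of other IP-G4s. It was farthest above 0 on chromosome 3, with 34.5% of 58 isolated and 17.4% of other IP-G4s. A higher share at the ends was not particular to isolated IP-G4s. Of those with a gap over 30 kb on a single side, 20.3% (95% Wilson interval 19.3 to 21.4) lay there. Of those with no such gap it was 16.6% (16.1 to 17.1), so the share rose with spacing. The rule selects on spacing, and spacing varies along a chromosome, so these shares describe where wide spacing lay. With a gap over 20 kb in place of 30 kb the difference was 4.55 points, and with ends of 5% on each side it was 2.95 points.

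The share of isolated IP-G4s among all specific ones was 3.46% (82 of 2367) in the first of 10 equal bins of the span. It reached its lowest values in bins 4 and 5, with 1.17% (36 of 3068) and 1.32% (39 of 2952), where other specific IP-G4s were most numerous. It was 3.24% (70 of 2161) in the last bin. Bins 4 and 5 held 12.9% of isolated and 23.8% of other IP-G4s. The median distance from the nearer end of the span was 20.2% of the span for isolated and 27.4% for other IP-G4s.

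**Figure D3:**
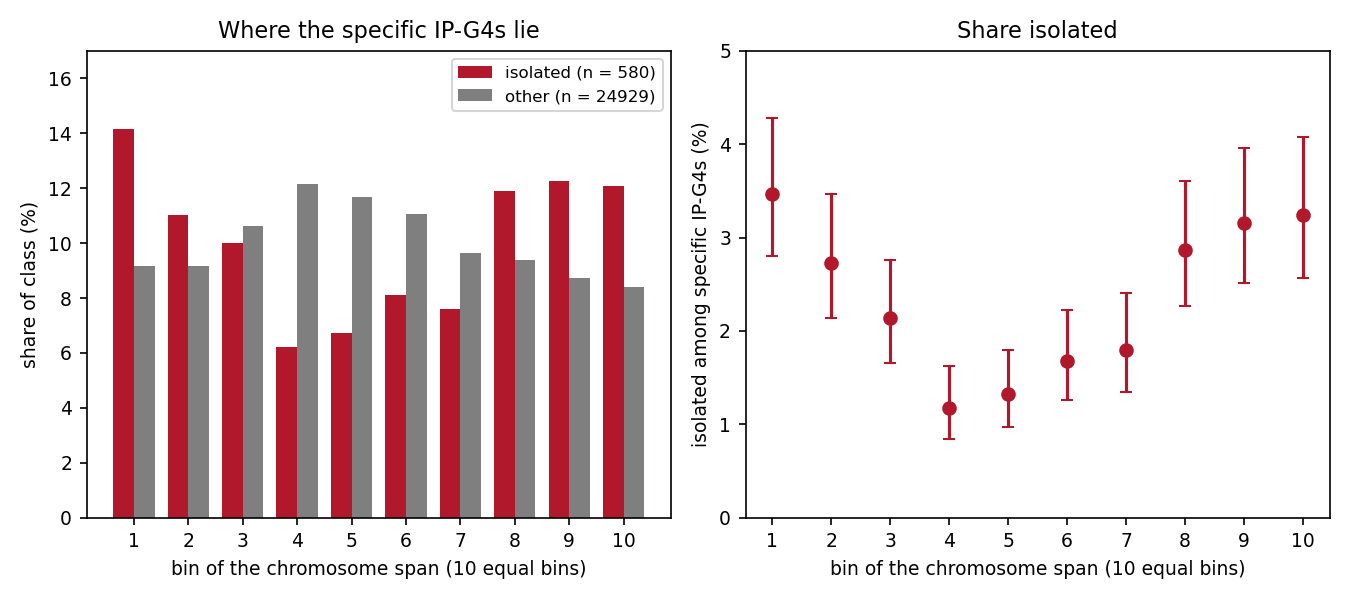
Left, share of isolated and of other specific IP-G4s (in percent of each class) in each of 10 equal bins of the chromosome span, pooled over 12 chromosomes. Right, share of isolated IP-G4s among all specific ones per bin, with 95% Wilson intervals, which is lowest in bin 4 (1.17%) and highest in bin 1 (3.46%).

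Both types showed this distribution. The ends held 26.9% (104 of 386) of isolated and 17.3% of other K+-specific IP-G4s. They also held 24.7% (48 of 194) of isolated and 18.0% of other Na+-specific ones. Among isolated IP-G4s, the K+-specific minus the Na+-specific share was 2.20 points (95% Newcombe interval -5.55 to 9.43). Per bin, the K+-specific share of the isolated IP-G4s ranged from 53.4% (31 of 58, 95% Wilson interval 40.8 to 65.7) in bin 3 to 82.1% (32 of 39, 67.3 to 91.0) in bin 5. These are the extremes of 10 small bins and were not set against the other specific IP-G4s of the same bins.

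Chromosomes also differed in how many of their specific IP-G4s were isolated. The share was highest on chromosome 1 with 2.78% (78 of 2807, 95% Wilson interval 2.23 to 3.45), and it exceeded 2.7% on chromosomes 2, 7 and 11 as well. It was lowest on chromosome 9 with 1.47% (24 of 1632, 0.990 to 2.18). The neighbouring chromosomes in this order had overlapping intervals. The mean gap was longest on chromosome 2 (15275 bp) and shortest on chromosome 5 (13348 bp), where 1.82% were isolated.

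The wider surroundings of isolated IP-G4s were counted as a description only, because the windows include both gaps that the rule required to be empty. Within 500 kb on either side, isolated IP-G4s had a median of 58 other specific IP-G4s (quartiles 51.5 and 67), against 69 (quartiles 60 and 80) around the others. These numbers cover 567 isolated and 24065 other IP-G4s whose whole window lay within the span. Of the isolated ones, 54.0% were in the sparsest 25% by this count and 8.11% in the densest 25%. A shift to lower counts follows in part from the rule, and how much lay beyond it was not tested. The 46 in the densest 25% show that isolated IP-G4s also occurred in crowded megabases.

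Values of single libraries were available for the beginning of Chr1, where the lists of all 4 libraries cover positions 1 to 5855384. On this stretch of 5.86 Mb lay 326 specific IP-G4s, of which 17 (5.21%) were isolated, 10 K+-specific and 7 Na+-specific. The isolated share was higher than the 2.27% of the whole genome and the 2.78% of chromosome 1. The stretch lies at a chromosome end and holds 17 of the 580 isolated IP-G4s, so its values need not hold for the rest. K+-specific ones were 58.8% of the isolated and 63.1% of the other 309. The lists hold fold enrichment over input and p-values but no read counts, so that the reads behind each peak are unknown. By the library totals in the study's supplement, replicate 2 was the deeper K+PEG library and replicate 1 the deeper Na+PEG library. Between 630 and 871 peaks per library were called here, with median fold enrichments between 3.52 and 4.30.

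The gaps around isolated IP-G4s were taken between specific IP-G4s only, and on this stretch most of them held common ones. Common IP-G4s are the segments reproducible under both conditions, and 392 were rebuilt here from the 4 lists. All 17 isolated IP-G4s (95% exact interval 80.5 to 100%) had a common IP-G4 within 30 kb, against 96.1% of the other 309 and 96.3% of all. Each of the 17 had 1 to 6 common IP-G4s within that distance (median 4), and the nearest lay 424 to 16517 bp away (median 5531 bp). For the others, the median number was also 4 and the median distance 4520 bp. Within 10 kb, 70.6% of the isolated and 79.0% of the other IP-G4s had a common one. The nearest peak of any library that did not overlap the IP-G4 itself lay at a median distance of 3440 bp from isolated and 935 bp from other IP-G4s, and such peaks include those under neighbouring specific IP-G4s.

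The 30 gaps beside the 17 isolated IP-G4s covered 1.53 Mb and held 95 common IP-G4s, or 62.2 per Mb, whereas the remaining 4.33 Mb of the stretch held 297, or 68.6 per Mb. Only 2 of the 30 gaps held none. The largest gap of the genome-wide lists, 213961 bp, followed the isolated K+-specific IP-G4 from 4522473 to 4523045 and held 15 common IP-G4s, with 20, 23, 20 and 14 peaks in K+PEG replicates 1 and 2 and Na+PEG replicates 1 and 2, in this order. Called peaks numbered 80.5 and 92.3 per Mb of gap in the K+PEG replicates 1 and 2, against 144 and 169 per Mb in the rest of the stretch. In the Na+PEG replicates 1 and 2 they numbered 85.1 and 74.0 per Mb of gap, against 156 and 119 per Mb in the rest. The rest contains the peaks under specific IP-G4s, which the gaps exclude by their definition.

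Peaks that touched no reproducible segment of either condition were not used by the rule. In the K+PEG replicates 1 and 2, they numbered 20.9 and 32.1 per Mb of gap, against 27.0 and 42.1 per Mb in the rest. In the Na+PEG replicates 1 and 2, they numbered 22.9 and 13.7 per Mb of gap, against 36.0 and 17.3 per Mb in the rest. They were thus sparser in the gaps in all 4 libraries, more so than the common IP-G4s, which differed by 62.2 against 68.6 per Mb. The sum over the stretch rests on 30 gaps, and the difference was not tested.

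**Figure D4:**
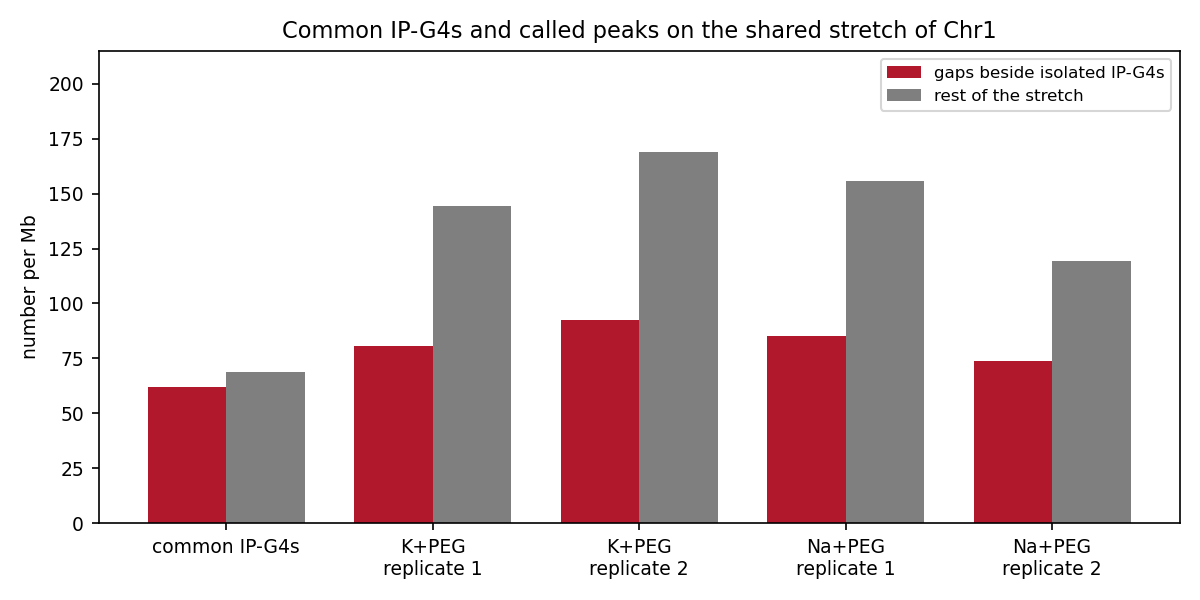
Number per Mb (vertical axis) of common IP-G4s and of all peaks called in each library, in the gaps beside the 17 isolated IP-G4s (1.53 Mb) and in the rest of the shared stretch of Chr1 (4.33 Mb). Common IP-G4s are nearly as dense in the gaps (62.2 per Mb) as in the rest (68.6 per Mb), whereas called peaks, which in the rest include those under specific IP-G4s, are sparser in the gaps in all 4 libraries.

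Among the 10 isolated K+-specific IP-G4s of the stretch, 4 overlapped no Na+PEG peak. The one from 4208181 to 4208410 was the strongest, with fold enrichments of 7.50 and 4.10 in K+PEG replicates 1 and 2. Its −log10 p-values were 24.3 and 12.2, and the nearest peak of any library lay 8314 bp away. It had the highest K+PEG replicate 1 value of all 17 isolated IP-G4s, and no Na+PEG library had a peak there. The other 3 were weaker, with fold enrichments in K+PEG replicates 1 and 2 of 4.33 and 3.50 (from 1527604 to 1527836), 3.98 and 2.69 (from 3728622 to 3728843), and 3.08 and 2.19 (from 626036 to 626393). The last of these had the lowest fold enrichment in both K+PEG replicates. The 4 without a Na+PEG peak thus included both the highest and the lowest K+PEG replicate 1 value of the 10.

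The other 6 K+-specific ones overlapped a peak of exactly 1 Na+PEG library, which was the deeper replicate 1 in 5 of them. Of the 195 other K+-specific IP-G4s, 106 had a peak in Na+PEG replicate 1 and 35 in replicate 2. From 660338 to 660567 the fold enrichments were 5.44 and 2.61 in K+PEG replicates 1 and 2, and 4.25 in Na+PEG replicate 1. From 4351528 to 4351746 they were 6.50 and 3.30 under K+PEG and 2.80 in Na+PEG replicate 1. From 2360155 to 2360513 they were 5.23 and 4.36 under K+PEG and 3.33 in Na+PEG replicate 1. In the last 2 of these, both K+PEG values lay above the Na+PEG one, whereas in the first the Na+PEG value lay between those of the K+PEG replicates.

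The IP-G4 from 971646 to 971819 had fold enrichments of 3.38 and 3.40 in K+PEG replicates 1 and 2 and 2.99 in Na+PEG replicate 1. From 4522473 to 4523045 the values were 3.15 and 5.22 under K+PEG and 2.67 in Na+PEG replicate 1. From 392311 to 392516 they were 3.10 and 2.76 under K+PEG, below the 3.57 of Na+PEG replicate 2. This was the only one of the 10 whose Na+PEG peak exceeded both K+PEG peaks, and it is K+-specific because Na+PEG replicate 1 had no peak there.

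All 7 isolated Na+-specific IP-G4s overlapped a peak of exactly 1 K+PEG library, which was the deeper replicate 2 in 6 of them. Of the 114 other Na+-specific IP-G4s, 70 had a peak in K+PEG replicate 2 and 23 in replicate 1, so that the deeper library held most such peaks there too. The part of depth in this split was not tested. The one from 3528627 to 3528853 had fold enrichments of 4.24 and 3.07 in Na+PEG replicates 1 and 2, and 5.71 in K+PEG replicate 2. From 3694026 to 3694397 they were 3.52 and 3.84 under Na+PEG and 4.77 in K+PEG replicate 2. From 2939537 to 2939805 they were 3.81 and 2.77 under Na+PEG and 4.24 in K+PEG replicate 2. At all 3 of these, the single K+PEG peak was above both Na+PEG peaks, and so it was from 760674 to 760938, with 3.09 and 2.86 under Na+PEG and 3.87 in K+PEG replicate 2.

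At the other 3, at least 1 Na+PEG value was the highest. From 4112015 to 4112257 the fold enrichments were 3.53 and 4.96 in Na+PEG replicates 1 and 2, and 2.61 in K+PEG replicate 2. From 5600158 to 5600470 they were 4.75 and 4.30 under Na+PEG and 3.54 in K+PEG replicate 1. From 715687 to 715854 they were 3.56 and 2.94 under Na+PEG, with 3.27 in K+PEG replicate 2 between them. Fold enrichments come from libraries called one by one and were not scaled to each other, so these values are given side by side and were not tested between conditions. Medians over all peaks of the stretch were 4.30 and 3.99 in K+PEG replicates 1 and 2, and 3.52 and 3.77 in Na+PEG replicates 1 and 2. How often a peak of the other condition exceeded both own peaks at the other specific IP-G4s was not counted.

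**Figure D5:**
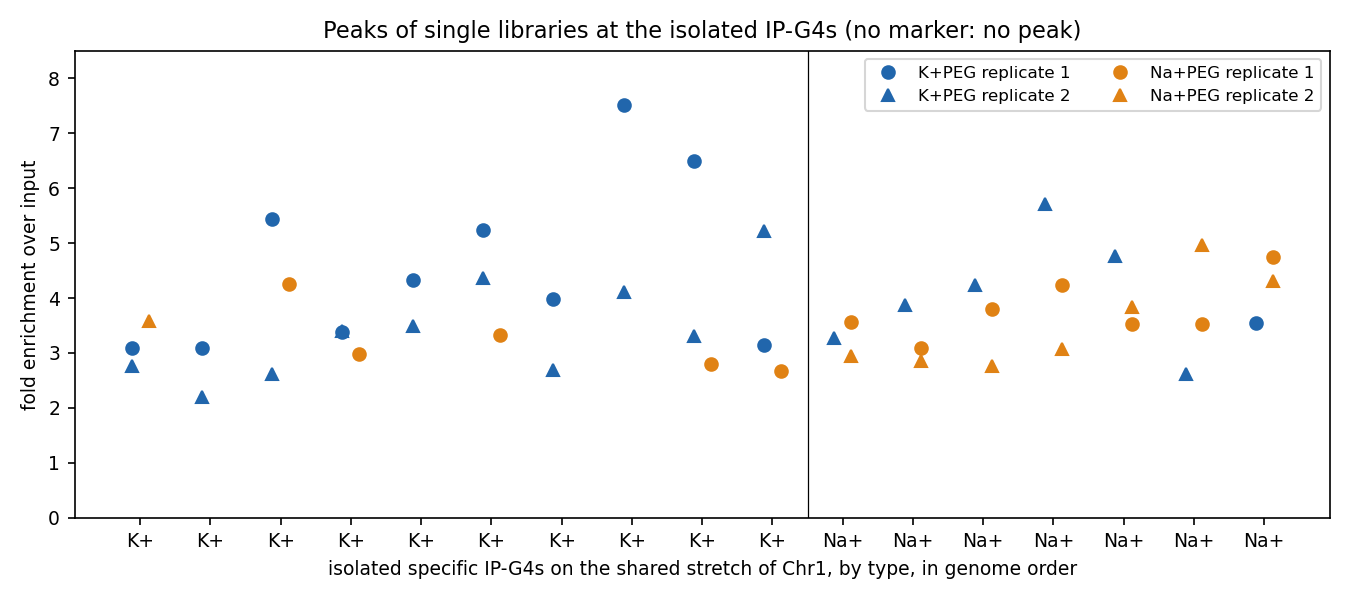
Fold enrichment over input (vertical axis) of the peak that each library had at the 17 isolated IP-G4s of the shared stretch of Chr1, K+-specific ones left of the line and Na+-specific ones right of it. Circles and triangles are replicates 1 and 2, blue is K+PEG and orange Na+PEG, and a missing marker means that no peak was called. A peak of the other condition is present at 6 of 10 K+-specific and at 7 of 7 Na+-specific IP-G4s.

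Counted together, 13 of the 17 isolated IP-G4s (76.5%, 95% exact interval 50.1 to 93.2) overlapped a peak of a library of the other condition, against 75.1% of the other 309 and 75.2% of all 326. For the K+-specific type the share was 60% (6 of 10, 95% exact interval 26.2 to 87.8) among isolated and 71.3% among other IP-G4s. For the Na+-specific type it was 100% (7 of 7, 59.0 to 100%) and 81.6%. The intervals of the isolated IP-G4s are wide and include the shares of the others for both types. The set of isolated IP-G4s depended on every library. Without K+PEG replicate 1 or 2, rebuilding the lists left 5 or 6 isolated IP-G4s, of which 40% or 33.3% overlapped a peak of the other condition, against 52.0% or 42.4% of the others. Without Na+PEG replicate 1 or 2, it left 6 or 11, of which 50% or 45.5% overlapped one, against 40.5% or 51.4% of the others. These shares are lower in part by construction, because an IP-G4 cannot overlap a peak of the other condition where a single library stands for that condition. All of these isolated IP-G4s had a common one within 30 kb. Of the others, 97.8% and 96.6% had one without K+PEG replicates 1 and 2, and 98.1% and 98.0% without Na+PEG replicates 1 and 2.

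Within the libraries of their own condition, isolated IP-G4s did not stand out in strength in the same direction in both replicates. The median fold enrichment of peaks under isolated K+-specific IP-G4s was 4.15 in K+PEG replicate 1, against 3.99 under other K+-specific ones, but 3.35 against 3.77 in replicate 2. For Na+-specific IP-G4s it was 3.56 against 3.25 in Na+PEG replicate 1 and 3.07 against 3.54 in replicate 2. The isolated minus other difference averaged -0.128 for the K+ type and -0.0790 for the Na+ type, and its sign differed between replicates for both. In lists rebuilt without K+PEG replicate 1, replicate 2 or Na+PEG replicate 2, the difference was above 0 for the K+ type, at 0.591, 0.733 and 0.462. For the Na+ type it was 1.48 without K+PEG replicate 1 and 0.351 without Na+PEG replicate 2. Without Na+PEG replicate 1 it was below 0 for both, at -0.158 for the K+ type and -0.0815 for the Na+ type. The rebuilt lists held only 5 to 11 isolated IP-G4s of both types together. Of the peaks under isolated K+-specific IP-G4s, 4 and 5 of 10 were among the weakest 25% of their list by p-value in K+PEG replicates 1 and 2, and 3 and 0 were among the strongest 25%. Of the peaks under the 195 other K+-specific ones, 66 and 53 were among the weakest 25% and 34 and 33 among the strongest 25%. For the 7 isolated Na+-specific IP-G4s, 1 and 4 peaks were among the weakest 25% and 1 and 1 among the strongest 25% in Na+PEG replicates 1 and 2. For the 114 others of that type, 34 and 38 were among the weakest and 8 and 13 among the strongest 25%.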

How the data were processed

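BG4-DNA-IP-seq libraries were made from rice seedlings, 2 under K+PEG, 2 under Na+PEG and 2 of input. According to the study's methods, the authors used Trim Galore for cleaning, BWA for alignment to the MSU v7.0 genome and SAMtools to discard PCR duplicates. MACS peaks were called per library against input. The deposited library lists give each peak a fold enrichment (a ratio over input), a −log10 p-value and a −log10 q-value. The deposited score is another form of the p-value and was not used. In the deposited lists of specific IP-G4s there are positions and no values. The files give no read counts. The study's supplement gives library totals, which were used here only to name the deeper library of each condition.

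Gaps were taken from the end of a specific IP-G4 to the start of the next one. The library lists used here cover the beginning of Chr1, and their incomplete last lines were left out. Replicates were intersected from 1 shared bp, and rebuilding returned the deposited specific IP-G4s of the stretch exactly. At each IP-G4, the peak with the smallest p-value was read from each library. Shares have 95% Wilson or exact binomial intervals, and differences have Newcombe or normal intervals, which cover counting error only. No test across IP-G4s was made. The members, the rule for the IP-G4s named and the comparisons were chosen with earlier results of these data known. Named were the isolated IP-G4s on the shared stretch, the 3 most isolated and the 3 longest of each type, and those nearest to the threshold. The shortest ones, the runs of 4 and the largest gap were added after their values were seen. Alternatives were other gap thresholds, midpoints, longer segments, merged neighbours, chromosomes or libraries left out, and peaks with smaller p-values. The functions were tested on simulated data in Python 3.11.15 with numpy 2.4.6, pandas 2.3.3 and scipy 1.17.1. The input libraries, GC content and PQSs (putative G-quadruplex sequences) were not analysed here.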

Additional observations from a re-analysis of the deposited data

How the results depend on the processing

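Of 77 alternative values for 10 results, 51 were judged unchanged and 26 moved, by an interval, a spread or a factor of 1.5. The values with −log10 p in place of fold enrichment have another scale and were judged by their sign alone. The cause was not tested except where the construction gives it. Merging IP-G4s under 1 kb apart leaves the gaps over 30 kb as they are, so it could not change any value. Its values are nevertheless counted among the 51. With a gap over 20 kb, 1728 IP-G4s were isolated, 36 on the stretch of Chr1, and the difference at chromosome ends was 4.55 points. With a gap over 50 kb, 58 were isolated, and isolated minus other was -3.50 points in K+-specific share and -41.2 and -8.18 bp in length for K+-specific and Na+-specific IP-G4s. With segments of at least 200 bp, 886 were isolated, since fewer IP-G4s enter, and the difference in K+-specific share was -3.72 points. Ends of 5% on each side in place of 10% gave 2.95 points. Leaving out any 1 chromosome kept the difference at chromosome ends between 7.72 and 10.1 points and that in K+-specific share between 0.157 and 2.02 points.

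On the stretch of Chr1, leaving out 1 library lets all peaks of its partner library stand for the condition. An IP-G4 specific for the other condition cannot overlap those peaks, so overlaps with the other condition are rarer in part by construction. Isolated IP-G4s then numbered 5 (without K+PEG replicate 1) to 11 (without Na+PEG replicate 2), against 17 with every library. Of them, 33.3% (without K+PEG replicate 2) to 50% (without Na+PEG replicate 1) overlapped a peak of the other condition. Isolated minus other median fold enrichment went from -0.158 (without Na+PEG replicate 1) to 0.733 (without K+PEG replicate 2) for K+-specific and from -0.0815 (without Na+PEG replicate 1) to 1.48 (without K+PEG replicate 1) for Na+-specific IP-G4s. Without K+PEG replicate 2 no isolated IP-G4 was Na+-specific, so there is no such value. With only the stronger 50% of each list by p-value, the difference was -0.689 for K+-specific IP-G4s. In these lists 66.7% of isolated IP-G4s had a common one within 30 kb, against 72.5% of the others. Within 10 kb, 70.6% of isolated IP-G4s had one, against 79.0% of the others. With −log10 p in place of fold enrichment, the difference for Na+-specific IP-G4s was 0.261. GC content and PQSs were planned and not run, since they need a genome of the build. No paired analysis was possible because no test between K+PEG and Na+PEG libraries was made to which a replicate block could be added.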
